A study of Homo sapiens with 26 samples.

Results

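The 2 triple depletions of the series differed by 1 siRNA target. NCCIT cells, a human embryonic carcinoma line, had received siRNA against DNMT1, DNMT3A and DNMT3B in the group labelled siD1+3A+3B, and siRNA against DNMT3A, DNMT3B and DNMT3L in the group labelled 3A+3B+3L. Each group had 2 arrays, so the comparison rests on 4 of the 26 arrays of the series, chosen by their titles. Both groups had 3 siRNA targets and shared DNMT3A and DNMT3B. Transcript levels were read on Affymetrix Human Gene 1.0 ST arrays over 18417 genes and are given as log2 values, on which a difference of 1 is a doubling. Positive differences mean a higher value in siD1+3A+3B. The groups used for orientation were 3A+3B, which had siRNA against DNMT3A and DNMT3B without a further target, and siNTC-2, which had control siRNA. The labels give neither the time from transfection to harvest nor the origin of the duplicates (1 culture or several). The p-values set a difference between groups against the spread between duplicates, taken over all 13 groups. That spread may therefore be technical.

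DNA methyltransferases place methyl groups on cytosine, mostly where it precedes guanine (a CpG). DNMT1 copies the pattern onto the new strand after replication, DNMT3A and DNMT3B methylate sites that carried no mark, and DNMT3L has no catalytic activity and assists DNMT3A and DNMT3B. Dense methylation of CpG-rich promoters keeps many germline genes silent in other cells, while embryonal carcinoma cells keep a transcript profile close to that of pluripotent cells. The comparison sets siRNA against the copying enzyme beside siRNA against the cofactor, where cells of both groups also had siRNA against DNMT3A and DNMT3B. Methylation itself was not analysed here.

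All 7 embryonal carcinoma markers measured lay above the 75th percentile of genes, at levels of 10.9 to 12.45. Of 33 markers of differentiated cells, 25 lay below the median gene and 4 above the 75th percentile. The mean level of those 33 markers was 6.03 and 6.04 in siD1+3A+3B and 6.0 and 6.02 in 3A+3B+3L, and 1 of them, TFAP2A, was called different between the groups, though not without siD1+3A+3B replicate 1 (adjusted p = 0.0576) or 3A+3B+3L replicate 2 (0.0598). Duplicates correlated at 0.9986 and 0.9989 across genes. Along the first principal component, which held 49.5% of the variance of the 26 arrays, siD1+3A+3B scored 7.8 and 9.5 and 3A+3B+3L scored 4.4 and 3.8, on the same side as siNTC-2 at 18.1 and 18.1. The other control, siNTC-1, scored -26.0 and -24.3, so siNTC-2 was the control set beside both groups.

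The targeted transcripts separated the groups at DNMT1. Its level was 9.19 and 9.28 in siD1+3A+3B and 10.17 and 10.16 in 3A+3B+3L. The arrays of siNTC-2 gave 9.98 and 9.99, and those of 3A+3B gave 10.05 and 10.09. DNMT1 was low in both arrays with its siRNA and in none of the others, with a difference of -0.93 ± 0.05 (SE, n = 2 arrays a group, adjusted p = 1.5e-08), or 1.90-fold. For DNMT3L the arrays read 5.93 and 5.89 in siD1+3A+3B and 5.66 and 5.65 in 3A+3B+3L, against 5.99 and 5.97 in siNTC-2 and 6.20 and 6.06 in 3A+3B. The 3A+3B+3L arrays were the lowest, and the groups did not overlap. The difference of 0.26 ± 0.12 did not pass the test (adjusted p = 0.338), although 3A+3B+3L differed from 3A+3B by -0.48 with an adjusted p of 0.0122. From siNTC-2 it differed by -0.33, with an adjusted p of 0.0498 that is next to the threshold. All of these DNMT3L values lie under the array medians of 6.28 to 6.33.

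The shared targets were not equally low. DNMT3A read 6.95 and 6.81 in siD1+3A+3B and 6.89 and 6.98 in 3A+3B+3L, overlapping, and all 4 arrays were below the siNTC-2 values of 7.26 and 7.31. DNMT3B read 11.50 and 11.44 in siD1+3A+3B, 11.63 and 11.69 in 3A+3B+3L and 11.19 and 11.26 in 3A+3B. In siNTC-2 it was 11.68 and 11.66, so the arrays labelled 3A+3B+3L differed from that control by -0.01 ± 0.06 (adjusted p = 0.951) although the label names DNMT3B as a target, while siD1+3A+3B differed from it by -0.20 ± 0.06 (adjusted p = 0.0303). Between the triple depletions the DNMT3B difference was -0.19 ± 0.06 (adjusted p = 0.141). The part of the DNMT3B level in the differences that follow was not tested. Groups are named by their labels throughout.

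**Figure D1:**
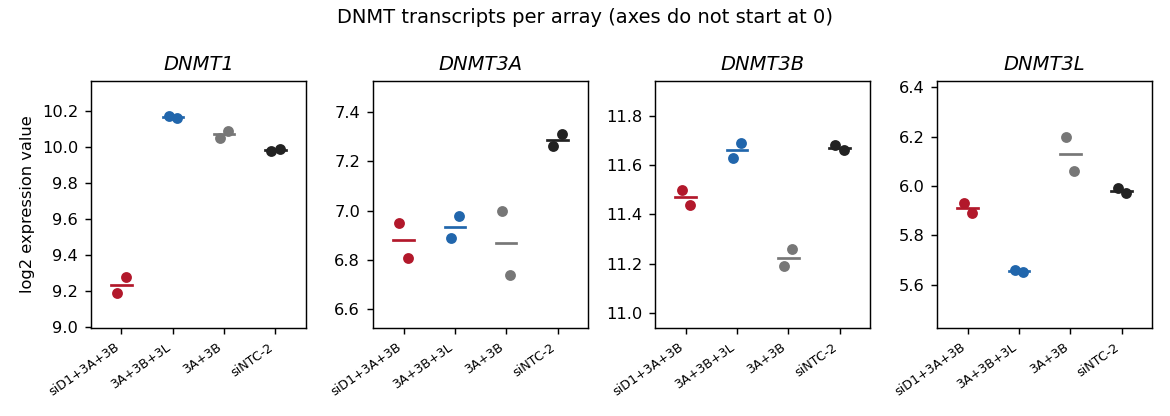
Log2 expression values (y axis, which does not start at 0) of the 4 DNMT transcripts on each array of siD1+3A+3B, 3A+3B+3L, 3A+3B and siNTC-2; points are arrays and bars are means of 2. DNMT1 is at 9.19 and 9.28 in siD1+3A+3B and at 9.98 or above elsewhere, DNMT3L is lowest in 3A+3B+3L, and DNMT3B in 3A+3B+3L lies at the level of siNTC-2.

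Of the 18417 genes, 323 differed between the triple depletions at an adjusted p under 0.05 in the limma fit (1.75%), 164 higher and 159 lower in siD1+3A+3B. The larger differences ran upward: 32 genes (0.174%) passed the test and differed at least 1.5-fold, of which 26 were higher and 6 were lower. The median difference over all genes was 0.004 and the median absolute difference 0.07. In all 323 called genes both arrays of one group lay beyond both of the other, which was so of 25.0% of all genes in the higher and 24.6% in the lower direction. The number of arrays limits what was called: the count was 104 without siD1+3A+3B replicate 1, 118 without replicate 2, 81 without 3A+3B+3L replicate 1 and 95 without replicate 2, while the 1.5-fold count was between 25 and 37. A fit on the 4 arrays alone called 22.

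**Figure D2:**
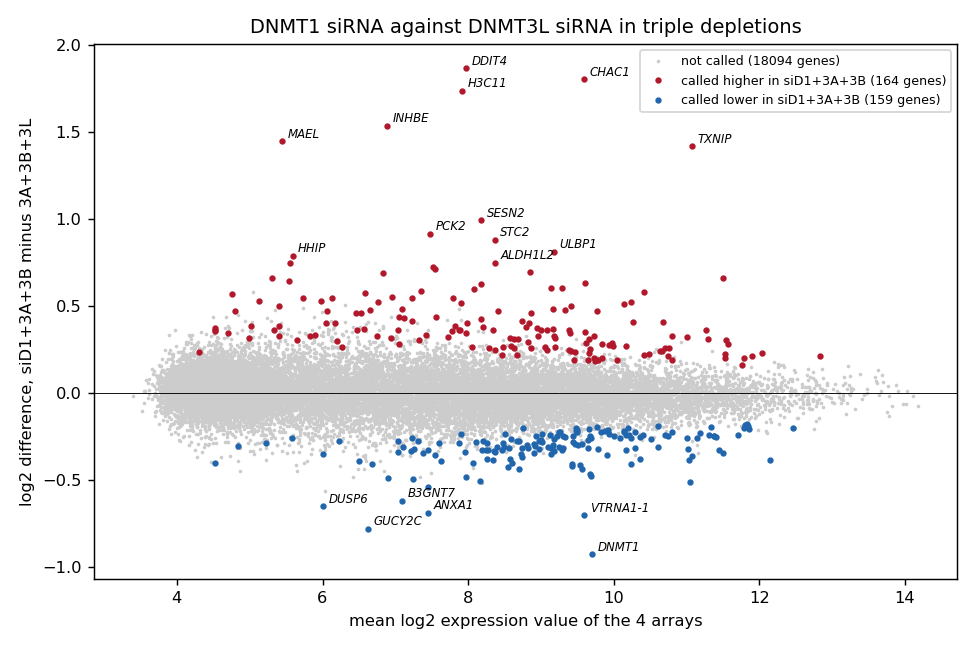
Log2 difference (siD1+3A+3B minus 3A+3B+3L, y axis) against the mean log2 expression value of the 4 arrays (x axis), 1 point a gene, with labels on genes that have the largest called differences. Called genes are red (164 higher) or blue (159 lower), and the largest differences, from DDIT4 at 1.87 to MAEL at 1.45, are upward, while DNMT1 at -0.93 is the lowest.

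The largest group among the higher genes belonged to the ATF4 and CHOP stress response. ATF4 is a transcription factor translated when cells lack amino acids or accumulate misfolded protein, and it induces CHOP (DDIT3), amino acid transporters and enzymes that make serine, asparagine and glutathione precursors. Of the 28 measured members of that list, 18 were higher, where 0.89% of all genes were called higher, and the median difference was 0.45 against 0.004 over all genes. DDIT4, an inhibitor of the growth kinase mTORC1, had the largest difference of all genes. Its arrays read 8.86 and 8.94 in siD1+3A+3B and 7.0 and 7.07 in 3A+3B+3L. Both values of 3A+3B+3L were far below the rest, since 3A+3B gave 9.39 and 9.54 and siNTC-2 gave 9.46 and 9.54. The difference between the triple depletions was 1.87 ± 0.08 (adjusted p = 1.5e-10), or 3.65-fold.

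CHAC1, which degrades glutathione, and INHBE, which encodes an activin subunit, had the same order of groups. CHAC1 was at 10.48 and 10.51 in siD1+3A+3B, at 8.72 and 8.66 in 3A+3B+3L, at 10.98 and 11 in 3A+3B and at 11.16 and 11.25 in siNTC-2. INHBE was at 7.57 and 7.75, then 6.13 and 6.11, then 8.30 and 8.41, and then 8.77 and 8.59 in the same order. In both, the 3A+3B+3L arrays were lowest, siD1+3A+3B came next and no groups overlapped. The differences were 1.80 ± 0.12 for CHAC1 (adjusted p = 8.1e-08) and 1.54 ± 0.13 for INHBE (adjusted p = 1.2e-06). SESN2, a sestrin that senses leucine, read 8.57 and 8.78 against 7.67 and 7.69, a difference of 0.99 ± 0.08. PCK2, the mitochondrial form of phosphoenolpyruvate carboxykinase, read 7.95 and 7.91 against 7.02 and 7.01. The secreted glycoprotein gene STC2 and the mitochondrial folate enzyme gene ALDH1L2 differed by 0.88 and 0.75.

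CHOP itself, listed as DDIT3, was at 9.23 and 9.17 in siD1+3A+3B and at 8.54 and 8.47 in 3A+3B+3L, 0.70 ± 0.06 higher. The CHOP-induced pseudokinase TRIB3 differed by 0.69 ± 0.12 (adjusted p = 0.00337). Amino acid transporters of the list were higher as well, SLC7A11, the cystine carrier, by 0.66, SLC7A5, the leucine carrier, by 0.61, and their shared heavy chain SLC3A2 by 0.24 (adjusted p = 0.0393). Among enzymes, ASNS, which makes asparagine, was 0.41 higher, CTH, which makes cysteine, 0.52, and PSAT1 and PSPH of serine synthesis 0.28 and 0.36. No member was called lower by limma (0 also at an unadjusted p under 0.05), and the remaining 10 did not pass the test. ATF4 was one of them, at 10.84 and 10.86 against 10.78 and 10.79 (adjusted p = 0.606), as was PHGDH, the first enzyme of serine synthesis, whose arrays overlapped between the groups. ATF3 and GDF15 had differences of 0.49 and 0.37 with adjusted p of 0.0564 and 0.0867. The call of SLC3A2 was lost without any one of the 4 arrays (0.0736 to 0.291). ASNS was lost without siD1+3A+3B replicate 1 (0.0628), 3A+3B+3L replicate 1 (0.0544) or replicate 2 (0.0709), and TRIB3 without siD1+3A+3B replicate 2 (0.055) or 3A+3B+3L replicate 1 (0.0836). PSAT1 was lost without siD1+3A+3B replicate 2 (0.0543) or 3A+3B+3L replicate 2 (0.0728), and PSPH without siD1+3A+3B replicate 1 (0.0766) or 3A+3B+3L replicate 2 (0.112). The count of 18 was 14 without any one of the 4 arrays, and 10 in the fit on the 4 arrays alone.

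Relative to 3A+3B, these genes were lower in both triple depletions and lowest with DNMT3L siRNA. In siD1+3A+3B 23 of the 28 members were called lower than in 3A+3B (2.17% of all genes), with a median of -0.46. In 3A+3B+3L 26 were called lower (5.49% of all genes), with a median of -0.96. These comparisons share the arrays of 3A+3B. Protein-folding genes of the endoplasmic reticulum did not follow as a group between the triple depletions. Their median difference was 0.02, and 1 of 19 was called, beside 1.75% of all genes. That was HERPUD1, a component of the degradation machinery, at 9.38 and 9.44 against 8.94 and 8.92 (difference 0.48 ± 0.06, adjusted p = 0.00014). HSPA5, the main chaperone, had a difference of -0.19 (adjusted p = 0.137). In bulk samples such as these, fewer cells of a type and less RNA per cell cannot be told apart.

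Other genes outside the list, TXNIP, HHIP, ULBP1 and VEGFA, had that order of groups. TXNIP, an arrestin-like protein induced by glucose that restrains glucose uptake, read 11.77 and 11.80 in siD1+3A+3B and 10.39 and 10.35 in 3A+3B+3L, while 3A+3B gave 12.04 and 12.10. Its 3A+3B+3L values stood apart from all others, and the difference was 1.42 ± 0.07 (adjusted p = 1.8e-09). HHIP, which binds and blocks hedgehog ligands, was at 6.0 and 5.96 against 5.14 and 5.25, with 7.01 and 7.19 in 3A+3B. ULBP1, a ligand for an activating receptor of natural killer cells, differed by 0.81 ± 0.07, and VEGFA, the angiogenic growth factor, by 0.62 ± 0.08. VEGFA was 1 of 3 genes higher among 30 glycolysis and hypoxia genes, beside 0.89% of all genes. With it were BNIP3 and BNIP3L, mitophagy receptors, at 0.31 and 0.32. These had another order of groups, with siD1+3A+3B the highest. Means in siD1+3A+3B, 3A+3B+3L, 3A+3B and siNTC-2 were 11.45, 11.14, 11.27 and 11.05 for BNIP3. For BNIP3L they were 11.17, 10.85, 11.08 and 10.99. The BNIP3 call was lost without siD1+3A+3B replicate 2 (0.27, adjusted p = 0.0757) or 3A+3B+3L replicate 1 (0.28, adjusted p = 0.0848), and that of BNIP3L without 3A+3B+3L replicate 2 (0.30, adjusted p = 0.0502). In the same list AK4 and the glucose transporter SLC2A1 were lower, beside 0.863% of all genes, with differences of -0.33 and -0.26. The AK4 difference was -0.12 (adjusted p = 0.562) when the clusters of the gene were averaged, and its call was lost without any one of the 4 arrays, at adjusted p of 0.0674 to 0.139. The call of SLC2A1 was lost without any one of them too, at 0.168 to 0.287, and with the replicate number as a block (0.0518).

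**Figure D3:**
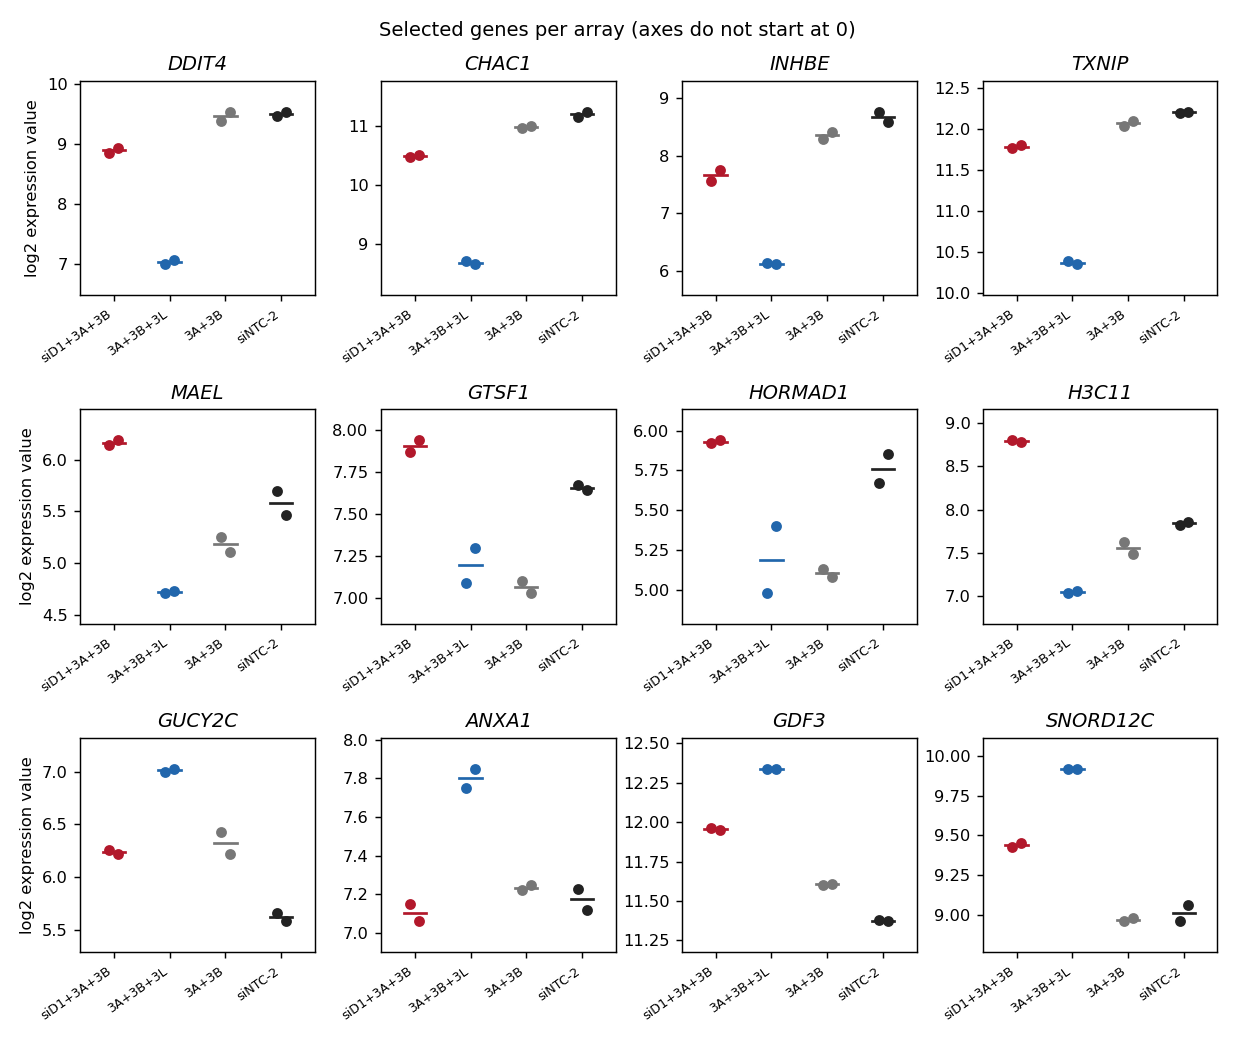
Log2 expression values of 12 genes on each array of 4 groups (each panel has its own y axis, which does not start at 0; bars are means of 2 arrays). In the top row 3A+3B+3L is lowest, in the middle row siD1+3A+3B is highest, and in the bottom row 3A+3B+3L is highest, as with GUCY2C at 7.0 and 7.03 against 6.26 and 6.22 in siD1+3A+3B.

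MAEL, GTSF1 and HORMAD1, germline genes, were higher in siD1+3A+3B than in 3A+3B+3L. MAEL, a component of the piRNA pathway that silences transposons in germ cells, read 6.14 and 6.19 in siD1+3A+3B and 4.71 and 4.73 in 3A+3B+3L. It was at 5.25 and 5.11 in 3A+3B and at 5.70 and 5.46 in siNTC-2, so siD1+3A+3B was above both and 3A+3B+3L below both. The difference was 1.45 ± 0.11 (adjusted p = 5.8e-07), or 2.73-fold. GTSF1, a zinc finger protein that acts with PIWI proteins, read 7.87 and 7.94 against 7.09 and 7.30, with 7.10 and 7.03 in 3A+3B and 7.67 and 7.64 in siNTC-2. Here 3A+3B+3L overlapped 3A+3B, and siD1+3A+3B differed from 3A+3B+3L by 0.71 ± 0.08 (adjusted p = 4.9e-05). HORMAD1, which coats chromosome axes in meiosis, read 5.92 and 5.94 against 4.98 and 5.40, with 5.13 and 5.08 in 3A+3B and 5.67 and 5.85 in siNTC-2, a difference of 0.74 ± 0.16 (adjusted p = 0.0178). The 3A+3B+3L duplicates of HORMAD1 were farther apart than those of siD1+3A+3B, and its call was lost without siD1+3A+3B replicate 1 (0.76, adjusted p = 0.109), siD1+3A+3B replicate 2 (0.73, adjusted p = 0.115) or 3A+3B+3L replicate 1 (0.54, adjusted p = 0.26). Against siNTC-2, GTSF1 differed by 0.25 in siD1+3A+3B (adjusted p = 0.0335) and by -0.46 in 3A+3B+3L (adjusted p = 0.00029). HORMAD1 differed from it by 0.17 (adjusted p = 0.52) and by -0.57 (adjusted p = 0.0116) in that order, so that for both the 3A+3B+3L group lay farther from the control than siD1+3A+3B did.

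Most germline genes did not pass the test. Of 29 measured piRNA pathway and germ cell genes, 3 were higher, beside 0.89% of all genes: MAEL, GTSF1 and DPPA3, a protector of methylation in the early embryo, at 12.16 and 12.13 against 11.91 and 11.92. The DPPA3 call, with a difference of 0.23, was lost without any one of the 4 arrays, at adjusted p of 0.0757 to 0.147. No member was called lower by limma, and 0 were lower at an unadjusted p under 0.05. The median of the list was 0.09, and DDX4, DAZL and PIWIL2, which are classic germ cell genes, had differences of 0.20, 0.10 and 0.05 with adjusted p of 0.341, 0.772 and 0.847. HORMAD1, whose call was lost without some single arrays as given above, was the 1 gene called among 24 meiosis genes, beside 0.89% of all genes called higher. That set includes genes known to be silenced by methylation. At an unadjusted p under 0.05, limma had 3 of its genes higher and 1 lower. By limma no gene was called among 23 of the MAGE family, where 2 were higher and 0 lower at an unadjusted p under 0.05, or among 29 imprinted genes, where 1 was higher and 1 lower.

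The promoters of 2 germline genes, 2 stress genes and 1 lower gene are shown because their density of CpG, the substrate of these enzymes, can be read from them. They are the 250 bases before the annotated start on the strand of the gene, from RefSeq on GRCh38.p14, with each CG pair in capitals. MAEL has 2 annotated starts at chr1:166975332-166975581 and chr1:166989030-166989279, both on the plus strand, with 51 and 22 CpG. GTSF1 at chr12:54473603-54473852 on the minus strand has 8. CHAC1 at chr15:40953221-40953470 has 19 and DDIT4 at chr10:72273674-72273923 has 26, both on the plus strand. ANXA1 at chr9:73151615-73151864 on the plus strand, one of the lower genes, has 0. They were picked as examples and do not stand for their direction: the median was 18.5 CpG over the promoters of called higher genes, 18 over those of called lower genes and 18 over all. Of the 18417 genes, 14237 had a promoter in the table, as had 128 of the 164 higher and 122 of the 159 lower genes.
MAEL, start 1: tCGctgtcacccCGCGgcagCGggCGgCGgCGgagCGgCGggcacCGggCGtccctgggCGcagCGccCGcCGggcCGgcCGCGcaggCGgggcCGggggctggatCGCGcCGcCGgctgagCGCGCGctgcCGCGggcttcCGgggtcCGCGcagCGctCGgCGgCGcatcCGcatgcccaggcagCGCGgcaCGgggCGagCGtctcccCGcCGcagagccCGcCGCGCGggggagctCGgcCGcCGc
MAEL, start 2: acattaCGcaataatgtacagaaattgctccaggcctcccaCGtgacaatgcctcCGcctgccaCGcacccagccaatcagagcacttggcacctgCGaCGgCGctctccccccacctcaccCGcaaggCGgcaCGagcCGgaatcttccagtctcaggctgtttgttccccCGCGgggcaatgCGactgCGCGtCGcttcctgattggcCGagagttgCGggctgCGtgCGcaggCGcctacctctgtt
GTSF1: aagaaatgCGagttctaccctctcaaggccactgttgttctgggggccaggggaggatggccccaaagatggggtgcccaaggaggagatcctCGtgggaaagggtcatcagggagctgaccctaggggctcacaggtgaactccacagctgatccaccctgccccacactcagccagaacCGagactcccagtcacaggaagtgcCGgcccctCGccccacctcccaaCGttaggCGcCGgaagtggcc
CHAC1: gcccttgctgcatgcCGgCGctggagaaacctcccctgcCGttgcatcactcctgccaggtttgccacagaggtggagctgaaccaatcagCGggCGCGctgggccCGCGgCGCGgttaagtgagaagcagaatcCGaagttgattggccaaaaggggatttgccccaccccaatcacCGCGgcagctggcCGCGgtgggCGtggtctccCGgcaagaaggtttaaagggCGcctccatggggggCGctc
DDIT4: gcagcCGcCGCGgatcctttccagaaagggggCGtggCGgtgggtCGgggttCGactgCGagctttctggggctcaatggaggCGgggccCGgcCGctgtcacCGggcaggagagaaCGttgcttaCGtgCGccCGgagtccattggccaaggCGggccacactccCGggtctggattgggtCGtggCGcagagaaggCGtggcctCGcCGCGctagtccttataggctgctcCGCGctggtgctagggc
ANXA1: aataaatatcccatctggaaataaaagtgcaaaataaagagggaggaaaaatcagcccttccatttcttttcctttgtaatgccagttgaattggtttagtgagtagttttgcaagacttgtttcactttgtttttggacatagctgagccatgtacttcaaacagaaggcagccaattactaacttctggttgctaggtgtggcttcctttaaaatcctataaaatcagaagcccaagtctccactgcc
The 2 starts of MAEL differ in CpG, and which of them was in use cannot be read from these arrays. The motif TGATGNAA, which ATF4 binds together with a C/EBP partner, was searched on both strands. CHAC1 holds it on the opposite strand, 209 to 202 bases before the start (there as the run ttgcatca), and the other sequences shown do not hold it in this window. Of all 14237 promoters, 312 (2.2%) hold it.

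Histone genes had a single large difference. H3C11, a replication-dependent histone H3 gene on chromosome 6, read 8.80 and 8.78 in siD1+3A+3B and 7.04 and 7.06 in 3A+3B+3L, with 7.63 and 7.49 in 3A+3B and 7.82 and 7.86 in siNTC-2. It was the highest in siD1+3A+3B and the lowest in 3A+3B+3L, 1.74 ± 0.11 apart (adjusted p = 5.8e-08). Of 57 replication-dependent histone genes, 5 were called higher, beside 0.89% of all genes, and the median was 0.06. No histone gene was called lower by limma, and 1 was at an unadjusted p under 0.05. The others were H1-5 at 0.57, H4C13 at 0.38, H4C6 at 0.36 and H3C2 at 0.32. Leaving out any one of the 4 arrays ended the calls of H1-5 (adjusted p of 0.0802 to 0.172) and H4C13 (0.0755 to 0.166). H3C2 was lost without siD1+3A+3B replicate 1 (0.0602) or 3A+3B+3L replicate 1 (0.0508), and H4C6 without 3A+3B+3L replicate 1 (0.0648). Histone genes are near-identical in sequence, so a probe set may take up signal from another copy.

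The lower genes with the largest differences after DNMT1, GUCY2C, VTRNA1-1 and ANXA1, were highest in 3A+3B+3L among these 4 groups. GUCY2C, the intestinal guanylate cyclase receptor, read 6.26 and 6.22 in siD1+3A+3B and 7.0 and 7.03 in 3A+3B+3L. The 3A+3B arrays gave 6.43 and 6.22, overlapping siD1+3A+3B, and siNTC-2 gave 5.66 and 5.58. The difference between the triple depletions was -0.78 ± 0.09 (adjusted p = 0.00012). ANXA1, a phospholipid-binding protein with anti-inflammatory action, read 7.15 and 7.06 against 7.75 and 7.85, and 3A+3B at 7.22 and 7.25 was close to siD1+3A+3B. TNC, which encodes the matrix protein tenascin C, was at 8.30 and 8.36 against 8.77 and 8.75, above the 7.92 and 7.96 of 3A+3B in both groups. The differences were -0.69 ± 0.06 for ANXA1 (adjusted p = 4.9e-06) and -0.43 ± 0.06 for TNC (adjusted p = 0.00042). B3GNT7, a glycosyltransferase gene, and NEFH, the heavy neurofilament gene, differed by -0.62 and -0.54.

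DUSP6, a phosphatase that ERK signalling induces and that switches ERK off, read 5.65 and 5.72 in siD1+3A+3B and 6.38 and 6.30 in 3A+3B+3L (difference -0.65 ± 0.14, adjusted p = 0.0215). The immediate-early gene FOS read 5.85 and 5.80 against 6.24 and 6.12 (difference -0.35 ± 0.07, adjusted p = 0.0179). These were the 2 called of 23 ERK feedback and immediate-early genes, where 0.863% of all genes were called lower, and the median of the list was -0.05. Without any one of the 4 arrays neither was called, at adjusted p of 0.102 to 0.177 for DUSP6 and 0.0523 to 0.222 for FOS. Of the 23 members 9 had differences above 0, and at an unadjusted p under 0.05 limma had 2 higher and 7 lower.

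Of 28 pluripotency factors 4 were lower, beside 0.863% of all genes, with a median of -0.08, and limma called 0 higher (2 at an unadjusted p under 0.05). GDF3, a TGF-beta family ligand made by pluripotent cells, was at 11.96 and 11.95 in siD1+3A+3B and at 12.34 and 12.34 in 3A+3B+3L, both above the 11.60 and 11.61 of 3A+3B. Its difference was -0.39 ± 0.05 (adjusted p = 0.00012). DPPA4, USP44 and ZFP42 differed by -0.24, -0.25 and -0.25, and each of those calls was lost without any one of the 4 arrays, at adjusted p of 0.0594 to 0.147, 0.106 to 0.197 and 0.109 to 0.232. SOX2 and LIN28A, core markers of the state, had differences of 0.16 and 0.02 (adjusted p = 0.217 and 0.941).

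Small structural RNAs were among the lower genes. VTRNA1-1, a vault RNA made by RNA polymerase III, read 9.29 and 9.20 in siD1+3A+3B and 9.99 and 9.90 in 3A+3B+3L, with 9.37 and 9.40 in 3A+3B. RPPH1, the RNA component of ribonuclease P and another product of that polymerase, read 10.74 and 10.84 against 11.35 and 11.26, with 10.60 and 10.76 in 3A+3B. In both genes 3A+3B+3L was the highest group and siD1+3A+3B lay near 3A+3B. The differences were -0.70 ± 0.14 for VTRNA1-1 (adjusted p = 0.00998) and -0.51 ± 0.08 for RPPH1 (adjusted p = 0.00138), and the call of VTRNA1-1 was lost without any one of the 4 arrays, at adjusted p of 0.0602 to 0.124. Of 115 C/D box small nucleolar RNAs, many of them guides for 2′-O-methylation of ribosomal RNA, 8 were lower, beside 0.863% of all genes, with a median of -0.07. SNORD12C led them at 9.43 and 9.45 against 9.92 and 9.92, a difference of -0.48 ± 0.07. Of 77 H/ACA box and Cajal body RNAs, which guide pseudouridine formation or modify spliceosomal RNA, 4 were lower (beside the same 0.863%), also with a median of -0.07. Limma called 0 higher in either list, where 3 and 2 were higher at an unadjusted p under 0.05. Without siD1+3A+3B replicate 1, replicate 2, 3A+3B+3L replicate 1 and replicate 2 in turn, the C/D count was 2, 1, 1 and 2 and the H/ACA count 0, 2, 0 and 1.

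**Figure D4:**
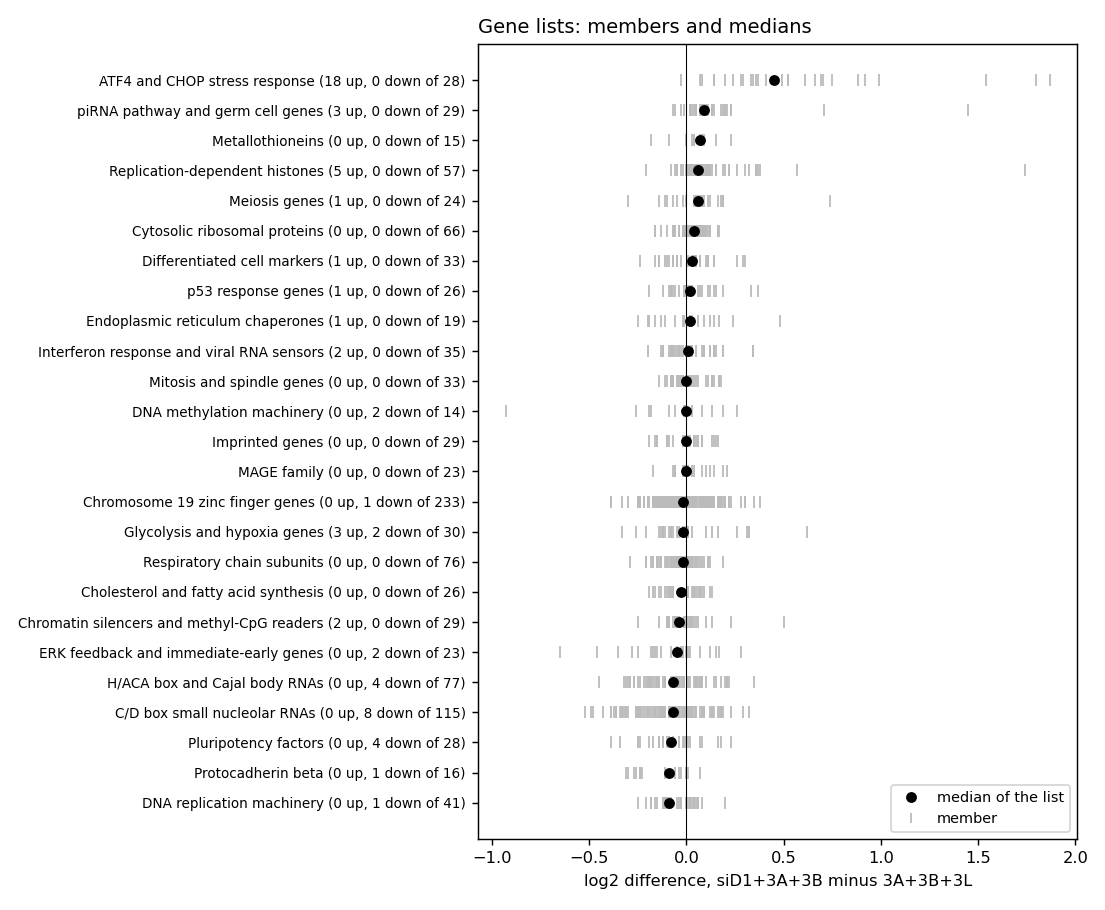
Log2 differences (siD1+3A+3B minus 3A+3B+3L, x axis) of the measured members of 25 gene lists, 1 row a list, with ticks for members and a black point for the median; the counts called up and down stand beside each name. The ATF4 and CHOP list lies to the right with a median of 0.45, and the other medians are between -0.09 and 0.09.

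Other lists held few or no called genes. Of 14 genes of the DNA methylation machinery 2 were lower, beside 0.863% of all genes. They were DNMT1, itself an siRNA target, and HELLS, a chromatin remodeller needed for methylation of repeats, at -0.26 ± 0.06 (adjusted p = 0.0425). The HELLS call was lost without any one of the 4 arrays (adjusted p of 0.137 to 0.286), with quantile normalization (0.069) and with the replicate number as a block (0.0517). UHRF1, which recruits DNMT1 to new DNA, had a difference of 0.13 (adjusted p = 0.58). ZFP57, a zinc finger protein that keeps imprints methylated, was higher by 0.50 ± 0.10 (adjusted p = 0.0162) and was, with DPPA3, 1 of 2 called of 29 chromatin silencers and methyl-CpG readers. The ZFP57 call was lost without siD1+3A+3B replicate 1 (0.40, adjusted p = 0.211), 3A+3B+3L replicate 1 (0.52, adjusted p = 0.11) or 3A+3B+3L replicate 2 (0.48, adjusted p = 0.147). BST2, an interferon-induced restriction factor, and IFI6 were 0.34 and 0.34 higher and were the 2 called of 35 interferon response genes, where 0.89% of all genes were called higher. Neither was called without any one of the 4 arrays, at adjusted p of 0.0868 to 0.254 for BST2 and 0.141 to 0.323 for IFI6. ZMAT3 at 0.19 was the 1 called of 26 p53 response genes, MCM10 at -0.25 the 1 of 41 of the replication machinery, PCDHB5 at -0.24 the 1 of 16 protocadherin beta genes and ZNF749 at -0.33 the 1 of 233 zinc finger genes of chromosome 19, beside 0.89% of all genes called higher and 0.863% lower. Leaving out any one of the 4 arrays ended the calls of ZMAT3 (adjusted p of 0.162 to 0.249), PCDHB5 (0.135 to 0.206) and ZNF749 (0.0861 to 0.212). MCM10 was lost without siD1+3A+3B replicate 1 (0.349), 3A+3B+3L replicate 1 (0.304) or 3A+3B+3L replicate 2 (0.0872). Limma called 0 genes among 26 of cholesterol and fatty acid synthesis (2 higher and 4 lower at an unadjusted p under 0.05), 33 of mitosis (6 and 1), 15 metallothioneins (2 and 1), 66 cytosolic ribosomal proteins (5 and 1) and 76 respiratory chain subunits (1 and 9).

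The same exchange of DNMT1 siRNA for DNMT3L siRNA could be read in 3 other backgrounds, with group means from other arrays. These were siDNMT1 against siDNMT3L with no further target, siD1+3A against 3A+3L with DNMT3A siRNA, and siD1+3B against 3B+3L with DNMT3B siRNA. They called 2312 genes (12.6%), 137 genes (0.744%) and 3739 genes (20.3%). The tests of these exchanges and of the comparison above share the spread between duplicates, taken over all groups. Their calls are therefore not independent. Of the 323 genes called in the triple depletions, 228 (70.6%) had the same sign with no further target, 266 (82.4%) with DNMT3A siRNA and 104 (32.2%) with DNMT3B siRNA. Called there with the same and with the opposite sign were 140 and 20, then 53 and 1, and then 41 and 146. The genes shared with the same sign made up 16.4% of the 323 and 38.69% of the 137 of the DNMT3A background. Across all genes the differences correlated with those of the triple depletions at 0.22, 0.30 and -0.19 in that order, a description over 18417 genes that share the array design. The groups siDNMT1 and siDNMT3L both lay on the siNTC-1 side of the first principal component and the other 6 groups on the siNTC-2 side. Each difference was therefore taken within one side, but the distances along the component were unequal. With DNMT3B siRNA, siD1+3B scored 3.8 and 3.4, while 3B+3L scored 20.2 and 17.7, near siNTC-2. With DNMT3A siRNA, siD1+3A scored 6.8 and 7.8 and 3A+3L scored 4.9 and 8.2. The part of this distance in the calls of each exchange was not tested.

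MAEL, GTSF1, HORMAD1 and H3C11 kept their direction across backgrounds. In all 4 exchanges 24 genes were called with the same sign (0.13%), 19 higher (0.103%) and 5 lower (0.0271%) with DNMT1 siRNA. The 4 calls of a gene share its spread between duplicates and are not independent tests. H3C11 was higher by 1.74 in the triple depletions, 2.58 with no further target, 2.39 with DNMT3A siRNA and 1.59 with DNMT3B siRNA. MAEL was higher by 1.45, 1.80, 1.48 and 0.64 in that order, and GTSF1 by 0.71, 1.93, 1.09 and 1.01. For HORMAD1 the differences were 0.74, 1.85, 1.29 and 0.55. H1-5, ZFP57, TKTL1, a transketolase-like gene, and PON2, a paraoxonase, completed the largest of the higher genes by the smallest difference over the 4 backgrounds. The 5 lower genes were DNMT1, B3GNT7, BSG, SEMA3A and SORBS2. DNMT1 differed by -0.93, -1.32, -0.91 and -1.0. Leaving out an array ended the calls of HORMAD1, H1-5 and ZFP57 as given above, and those of TKTL1, BSG and SEMA3A. TKTL1 was at an adjusted p of 0.142 without siD1+3A+3B replicate 2, 0.116 without 3A+3B+3L replicate 1 and 0.0564 without 3A+3B+3L replicate 2. Without siD1+3A+3B replicate 1, 3A+3B+3L replicate 1 and 3A+3B+3L replicate 2, adjusted p was 0.098, 0.092 and 0.058 for BSG and 0.194, 0.127 and 0.0772 for SEMA3A. SORBS2, at -0.35, was at -0.19 (adjusted p = 0.0527) with the clusters of the gene averaged.

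For GTSF1 the difference in the triple depletions was below the mean of the other 3. The difference of the exchange here minus the mean of the other 3 was -0.63 ± 0.09 for GTSF1 (adjusted p = 0.00041) and -0.96 ± 0.14 for H1-5 (adjusted p = 0.00042). Against single backgrounds, limma called GTSF1 only with no further target, at -1.22 (adjusted p = 5.6e-06). It was at -0.38 with DNMT3A siRNA (adjusted p = 0.316) and -0.30 with DNMT3B siRNA (adjusted p = 0.0881). The values that follow are again against the mean of the other 3. For MAEL it was 0.14 ± 0.13 (adjusted p = 0.653), for H3C11 -0.45 ± 0.13 (adjusted p = 0.06) and for HORMAD1 -0.48 ± 0.18 (adjusted p = 0.153). In the piRNA and germ cell list 14 of 29 genes were higher with no further target (6.23% of all genes), 4 with DNMT3A siRNA (0.51%) and 4 with DNMT3B siRNA (8.43%), beside 3 here. The medians were 0.26, 0.07, 0.09 and 0.09 in that order. With DNMT3B siRNA 2 members were called lower (11.9% of all genes), and 0 in the other 3 exchanges. Against 3A+3B, MAEL differed by 0.98 in siD1+3A+3B and by -0.46 in 3A+3B+3L. H3C11 differed by 1.23 and -0.51, and GTSF1 by 0.84 and 0.13, the last not called (adjusted p = 0.397).

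The stress genes did not keep their direction. DDIT4 differed by 1.87 in the triple depletions, 0.17 with no further target, 0.43 with DNMT3A siRNA and -2.22 with DNMT3B siRNA. CHAC1 differed by 1.80, -0.35, 0.57 and -1.75, and INHBE by 1.54, -0.04, 0.24 and -2.74. The list as a whole had a median of 0.45 in the triple depletions, -0.15 with no further target, 0.05 with DNMT3A siRNA and -1.14 with DNMT3B siRNA. In the last, 26 of the 28 members were called lower, where 11.9% of all genes were called lower. The exchange in the triple depletions minus the mean of the other 3 was called for 793 genes (4.31%), 413 higher and 380 lower, and for 25 of the 28 members, all higher (2.24% of all genes). That difference was 2.41 ± 0.09 for DDIT4 (adjusted p = 2.3e-11), 2.31 ± 0.14 for CHAC1 and 2.39 ± 0.14 for INHBE (both adjusted p = 6.5e-09). Against each background alone, the difference was called for 2726 genes with DNMT3B siRNA, 610 with no further target and 18 (0.0977%) with DNMT3A siRNA. Among the 18 were DDIT4 at 1.43 ± 0.11 (adjusted p = 3.7e-06) and CHAC1 at 1.23 ± 0.17 (adjusted p = 0.00293). The count of 793 was 373 without siD1+3A+3B replicate 1, 411 without replicate 2, 339 without 3A+3B+3L replicate 1 and 353 without replicate 2.

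Genes lower in siD1+3A+3B had different directions elsewhere. GUCY2C differed by -0.78 in the triple depletions, -0.09 with no further target, -0.45 with DNMT3A siRNA and 0.17 with DNMT3B siRNA. ANXA1 differed by -0.69, -0.60, -0.16 and 0.42. TNC differed by -0.43, 0.43, 0.06 and 0.74, called higher with DNMT1 siRNA with no further target and with DNMT3B siRNA and not called with DNMT3A siRNA (adjusted p = 0.788). Of the 115 C/D small nucleolar RNAs, 13 were lower and 2 higher with no further target (6.33% of all genes were lower there), and 42 were higher and 1 lower with DNMT3B siRNA (8.43% of all genes were higher there). With DNMT3A siRNA limma called 0 (0.233% of all genes were lower), and 16 were higher and 12 lower at an unadjusted p under 0.05. SNORD12C differed by -0.48, -0.35, -0.13 and 0.78 in that order.

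**Figure D5:**
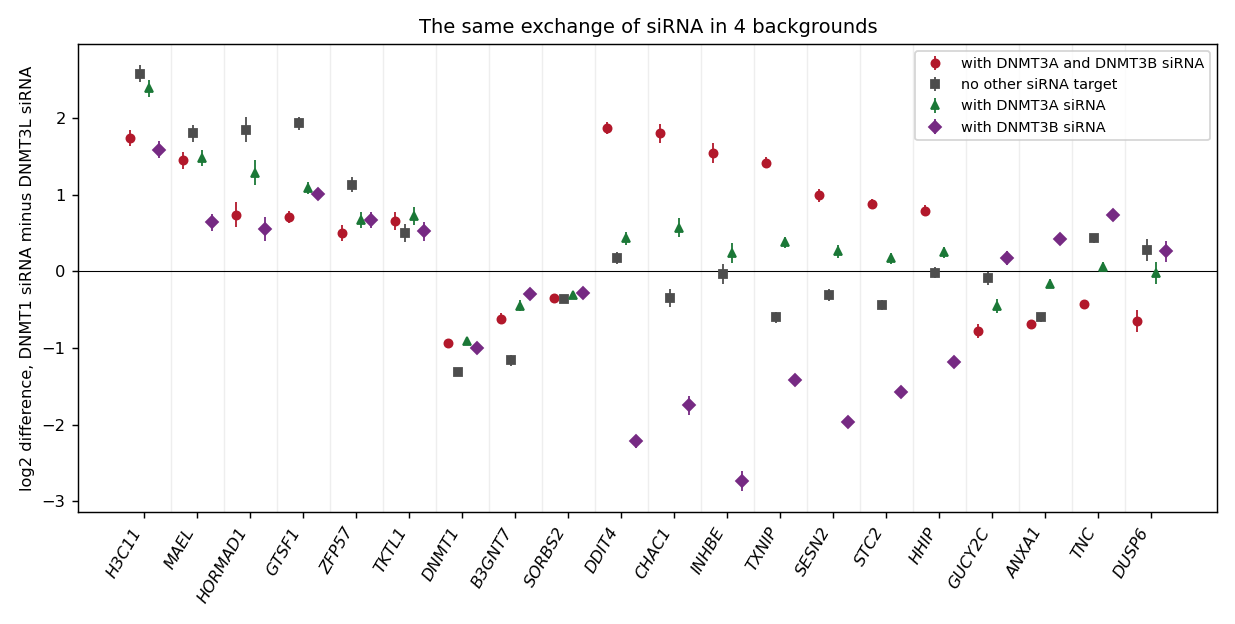
Log2 difference of DNMT1 siRNA minus DNMT3L siRNA (y axis) for 20 named genes in 4 backgrounds, with standard errors from the fit as bars (n = 2 arrays a group). From H3C11 to SORBS2 the 4 points of a gene lie on one side of 0, and from DDIT4 to HHIP the point with DNMT3A and DNMT3B siRNA is above 0 and the point with DNMT3B siRNA below it, at 1.87 and -2.22 for DDIT4.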

How the data were processed

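Per the file headers, the deposited table holds 33297 rows and 26 columns, 1 for each array, in 13 groups of 2. The authors deposited processed values that read as log2, with the base inferred from their range (3.04 to 14.87). Partek is named per the submitters' processing notes. The sources used here give neither its role nor the background correction or the normalization. Per the labels' protocols, 250 ng of total RNA went into each labelling.

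Rows with exactly 1 symbol (19460) were kept, and rows with several (1754) or none (12083) were left out. The row with the highest mean stood for each of 769 genes with more than 1, giving 18417 genes in all, with none removed for low values. Of the rows kept, 19429 matched RefSeq by gene number, and 0 were renamed.

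Groups came from the titles. A fit of 13 group means to all 26 arrays with limma 3.58.1 in R 4.3.3 (13 residual degrees of freedom, two-sided moderated test) gave differences and standard errors. P-values were adjusted by Benjamini and Hochberg over all 18417 genes, with 0.05 as the threshold. The steps were tested on simulated data. Genes named are the 4 DNMT transcripts, the 12 largest called differences each way, up to 8 genes each way called with one sign in all 4 backgrounds, 5 each way for the difference between backgrounds, and up to 4 members of each list by adjusted p. Further members of a list are named to describe it and were picked with their values known. The text prints some of each set. The comparison and the 25 gene lists were chosen with earlier results of these data known, and lists are described by counts and medians only. Equal replicate numbers did not deviate together (correlation -0.05 between the 2 groups), so they were not treated as pairs.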

Additional observations from a re-analysis of the deposited data

Results flagged for a closer look

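For 793 genes the exchange of DNMT1 siRNA for DNMT3L siRNA in the triple depletions differed from the mean of the same exchange in the other 3 backgrounds, by a test of that difference in the limma fit at an adjusted p under 0.05. Against each background alone, 2726 genes differed with DNMT3B siRNA, 610 with no further target and 18 with DNMT3A siRNA. The values that follow are against the mean of the 3. Among the named genes, those with a more positive difference in the triple depletions were DDIT4 at 2.41, INHBE at 2.39, CHAC1 at 2.31, TXNIP at 1.96, PCK2 at 1.71, SESN2 at 1.67, STC2 at 1.5, ALDH1L2 at 1.41, ULBP1 at 1.16, HHIP, VEGFA and SLC7A11 each at 1.10, HERPUD1 at 0.68 and BST2 at 0.38 on the log2 scale. BSG, lower with DNMT1 siRNA in all 4 backgrounds, was less so in the triple depletions than in the mean of the other 3, by 0.43. It differed by -0.34 here, -1.35 with no further target, -0.36 with DNMT3A siRNA and -0.60 with DNMT3B siRNA.

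A more negative difference in the triple depletions was found for H1-5 at -0.96, TAS2R13 at -0.86, DUSP6 at -0.83, TNC at -0.83, VTRNA1-1 at -0.67, GUCY2C at -0.66, GTSF1 at -0.63, RPPH1 at -0.59, ANXA1 at -0.58, RASL11B at -0.54, AK4 at -0.51, FOS at -0.39, GDF3 at -0.38, MCM10 at -0.37 and ZFP42 at -0.25. The small RNAs among them were SNORD14C at -0.61, SNORD12C at -0.58, SNORA24 at -0.53, SNORD52 at -0.45, SCARNA4 at -0.44, SNORD60 at -0.31, SNORA71A at -0.28 and SNORA21 at -0.26. Not all were more negative here than in each background. VTRNA1-1 differed by -0.70 here and -0.81 with no further target, and SNORD60 by -0.31 and -0.43. Against the exchange with no further target alone, limma did not call several, among them ANXA1 (adjusted p = 0.681), GDF3 (0.494) and ZFP42 (0.896). H1-5 and GTSF1 were higher with DNMT1 siRNA in every one of the 4 backgrounds and less so here. For GTSF1, limma did not call the difference from the exchange with DNMT3A siRNA (adjusted p = 0.316) or DNMT3B siRNA (0.0881) alone.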

How the results depend on the processing

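The 323 calls became 589 without the dimmest 40% of genes, 594 with a trended and robust variance prior, 981 with array weights and 22 with only the 4 arrays compared. The 793 calls of the difference between backgrounds became 1283, 1236 and 1472 under the first 3 of these and 672 with only the 16 arrays of the 8 groups. With quantile normalization the counts were 443 and 1040. Leaving out 1 array gave 81 to 118 and 339 to 411, where the lone array of a group is assumed to vary like the other groups. The 1.5-fold counts stayed within 22 to 37 and 75 to 90. DNMT3B, at -0.19, passed the threshold with the variance prior (-0.19, adjusted p = 0.0247) and with array weights (-0.19, adjusted p = 0.0344). With the replicate number as a block the counts were 296 and 780, and the calls of BEX1, HELLS and IFI6 were lost among the named genes and those of SLC2A1, SNORD30 and SNORD116-28 among other list members. Within the 18 arrays on the side of siNTC-2, chosen after seeing the data, 417 genes were called.

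Of 68 named genes, 61 kept direction and side of the threshold in each alternative that kept all replicates, other than the fit on 4 arrays, 30 did so without any one of the 4 arrays and 21 in the fit on 4 arrays. None reversed in the alternatives run. MAEL, HORMAD1, H1-5, H4C13, TKTL1, ZFP57 and DNMT3L are among the dimmest 40% and have no value without them. The causes of these shifts were not tested. Signal near background limits dim genes such as DNMT3L, and 2 arrays a group limit all.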
